A study of Mus musculus with 18 samples.

Results

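The sites described here are the 2982 distal Foxa2 sites that were called in livers of Zmpste24 mutant mice and not in their wild-type littermates, and that lie outside the lamin B1 domains of wild-type liver. They were selected on the calls themselves: a site of the mutant list on chromosomes 1 to 19 was taken when it shared no base with a wild-type Foxa2 site, when its midpoint lay more than 5 kb from the start of every protein-coding gene, and when its midpoint lay in no lamin B1 domain called at either age. The mutant list holds 8177 sites, of which 8051 lie on these chromosomes, and 6698 of the 8051 (83.2%) had no wild-type overlap. Of these, 787 lay within 5 kb of a gene start and 5911 were distal, and 2982 of the distal sites (50.4%) were outside lamin domains. No test is given for overlap with wild type, distance to a gene start or position relative to lamin domains, because these values chose the sites.

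Foxa2 was immunoprecipitated from livers of male mice on the C57BL/6 strain aged 12 weeks, either Zmpste24 mutants (Zmpste24 KO) or wild-type littermates (WT), with 3 replicates of each. Lamin B1 and the histone mark H3K9me3 were profiled in livers of wild-type males aged 3 months (young) and 21 months (old), with 2 replicates of each. Per the study, old liver had more aligned H3K9me3 reads than young liver, and fewer lamin B1 reads. Differences between the young and old lists were not adjusted for this depth here. The replicates of a group were merged before regions were called, so each group is 1 list of positions with no signal, score or spread between mice, the depth behind a single site is unknown, and the intervals below cover counting error only. Lamin B1 and H3K9me3 were not measured in the Zmpste24 mutants, so a site outside lamin domains is a site outside the domains of wild-type liver, and the mutant reads were reduced in number before sites were called.

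Foxa2 is a forkhead transcription factor that opens compacted chromatin in liver and is called a pioneer factor for that reason. Zmpste24 encodes the protease that matures prelamin A, and mice without it accumulate unprocessed prelamin A at the nuclear lamina and age early. Lamin B1 lies at the inner face of the nuclear envelope, and chromatin bound to it is typically poor in genes and often carries H3K9me3, the mark of constitutive heterochromatin.

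In these lists the lamin B1 domains did not have that gene-poor composition. Together the young and old domains covered 44.4% of the 300-base windows of chromosomes 1 to 19 and held 70.2% of the protein-coding start sites (14598 of 20807). The distal genome inside them had a median GC content of 45% per window and the distal genome outside them 39%. The 2982 sites therefore lay in the AT-rich, gene-poor share of the genome, with a median of 2 protein-coding start sites within 500 kb, against 9 for the 2929 mutant-only distal sites inside lamin domains.

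Foxa2 binds DNA through a forkhead domain, and the words TGTTTAC and TATTTAC were taken as the core of its motif and searched on both strands in the 300 bases around each midpoint. No other word searched contains a forkhead word, and AGGTCA, the hexamer bound by nuclear receptors, is part of the DR-1 element. The sites with most forkhead words are printed first, since they show how differently the words were arranged at sites of the same class. Of the windows, 1 held 7 words, 3 held 3 and 37 held 2. The last one printed is the first of these 37 by distance of its nearest word from the midpoint and then by position. All sequences are from the plus strand of GRCm38.p6, whose coordinates are those of mm10, and capitals mark forkhead words or their reverse complements. The window in an intron of Dock2, which encodes an activator of Rac in leukocytes, is chr11:34681804-34682103 and holds 7 words. All 7 are GTAAACA, and they start 24, 48 or 49 bases apart in a stretch of near-identical units. The window in an intron of Man1a, which encodes a Golgi mannosidase, is chr10:53929678-53929977, and its 3 words lie from 14 bases before the midpoint to 116 bases after it. The window in an intron of Cdh20, a cadherin gene, is chr1:104811024-104811323, with 3 words at one edge, 13 and 15 bases apart. The intergenic window 178 kb from the start of Prr30 is chr14:101022126-101022425, where 2 of the 3 words adjoin. The intergenic window 332 kb from the start of BC052040 is chr2:115250063-115250362 and has a word at the midpoint itself and another 45 bases on.
Dock2: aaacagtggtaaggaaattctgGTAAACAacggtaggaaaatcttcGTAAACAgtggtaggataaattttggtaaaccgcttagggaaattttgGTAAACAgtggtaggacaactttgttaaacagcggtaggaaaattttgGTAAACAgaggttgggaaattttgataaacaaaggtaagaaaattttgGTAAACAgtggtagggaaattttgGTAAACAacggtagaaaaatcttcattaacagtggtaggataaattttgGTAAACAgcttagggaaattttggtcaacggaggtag
Man1a: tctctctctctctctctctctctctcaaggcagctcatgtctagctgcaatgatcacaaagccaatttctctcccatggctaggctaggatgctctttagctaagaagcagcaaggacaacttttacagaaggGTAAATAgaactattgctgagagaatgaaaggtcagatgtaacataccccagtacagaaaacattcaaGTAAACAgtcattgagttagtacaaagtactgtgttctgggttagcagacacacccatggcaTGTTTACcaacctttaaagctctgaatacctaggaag
Cdh20: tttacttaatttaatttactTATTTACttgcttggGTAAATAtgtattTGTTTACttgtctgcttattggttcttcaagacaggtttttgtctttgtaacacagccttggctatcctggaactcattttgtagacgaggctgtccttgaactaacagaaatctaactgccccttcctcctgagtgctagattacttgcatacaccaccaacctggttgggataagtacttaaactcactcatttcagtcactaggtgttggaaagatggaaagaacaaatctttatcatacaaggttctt
Prr30: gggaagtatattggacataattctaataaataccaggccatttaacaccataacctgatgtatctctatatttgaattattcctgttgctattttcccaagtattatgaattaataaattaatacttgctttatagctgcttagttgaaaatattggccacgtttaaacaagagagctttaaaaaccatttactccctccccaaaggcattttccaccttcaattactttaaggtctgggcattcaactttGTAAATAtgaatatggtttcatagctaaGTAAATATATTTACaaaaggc
BC052040: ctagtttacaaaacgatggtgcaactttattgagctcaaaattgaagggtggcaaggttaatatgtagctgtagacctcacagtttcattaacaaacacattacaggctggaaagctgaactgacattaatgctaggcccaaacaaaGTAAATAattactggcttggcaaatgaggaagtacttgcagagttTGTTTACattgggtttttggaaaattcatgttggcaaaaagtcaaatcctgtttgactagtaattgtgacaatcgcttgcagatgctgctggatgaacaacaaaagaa

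The next sequences are shown because they lie nearest to genes of lipid metabolism or its control. Of 28 sites whose nearest gene was on a list of nuclear receptors and coactivators, hepatocyte transcription factors or lipid genes, 5 held a forkhead word. Of these 5, 4 were nearest to Ppargc1a, which encodes a coactivator of mitochondrial and gluconeogenic genes, and 1 was nearest to Gpam, which encodes the first enzyme of triglyceride synthesis. The Ppargc1a sites are given by their distance from its start site. The site 111 kb downstream lies in an exon of the gene, and only 25 bases of it (chr5:51457077-51457101) are shown. The others are chr5:51781574-51781673, 214 kb upstream, chr5:51254111-51254210, 314 kb downstream, and chr5:51039965-51040064, 528 kb downstream, where 2 words in opposite orientation start 32 bases apart. The Gpam site, 535 kb downstream, is chr19:54591625-54591724.
Ppargc1a 111 kb downstream: ttaacatctGTAAATActtaactac
Ppargc1a 214 kb upstream: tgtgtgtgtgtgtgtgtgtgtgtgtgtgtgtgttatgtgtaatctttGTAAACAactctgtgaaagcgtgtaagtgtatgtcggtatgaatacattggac
Ppargc1a 314 kb downstream: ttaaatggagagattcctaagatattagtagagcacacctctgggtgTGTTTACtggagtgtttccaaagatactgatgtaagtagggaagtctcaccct
Ppargc1a 528 kb downstream: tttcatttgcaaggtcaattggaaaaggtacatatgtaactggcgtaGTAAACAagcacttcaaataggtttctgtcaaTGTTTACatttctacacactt
Gpam 535 kb downstream: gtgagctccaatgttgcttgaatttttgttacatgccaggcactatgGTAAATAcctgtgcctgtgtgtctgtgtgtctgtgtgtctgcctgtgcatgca

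DR-1, the hexamer AGGTCA repeated after 1 base, is the element bound by PPAR and RXR receptors. Only exact matches were counted here, for DR-1 as for the other words. The study scanned with weight matrices, which also accept inexact matches. It reported forkhead and DR-1 motifs as enriched over all sites bound by Foxa2 in the mutants alone. A match was present in the central window of 1 of the 2982 sites (0.0335%), against 0.0245% of all distal windows outside lamin domains and 0.0382% of 31396 RefSeq promoters of the same length. The site is intergenic, 221 kb upstream of Pard3b, a gene of cell polarity, and its window is chr1:61417462-61417761, with the element in capitals as its reverse complement.
Pard3b: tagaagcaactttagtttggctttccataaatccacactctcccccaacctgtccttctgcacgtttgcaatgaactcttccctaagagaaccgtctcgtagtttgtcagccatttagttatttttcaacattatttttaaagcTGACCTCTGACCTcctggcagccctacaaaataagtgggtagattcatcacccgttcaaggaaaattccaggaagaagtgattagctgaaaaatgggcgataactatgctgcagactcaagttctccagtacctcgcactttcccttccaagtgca

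A forkhead word was found in the central window of 436 of the 2982 sites (14.6%, 95% Wilson interval 13.4 to 15.9%). Most of these held 1 word (395 sites), and 41 sites (1.37%) held 2 or more. TGTTTAC was present at 222 sites and TATTTAC at 229. In windows of the same length 5 kb from the midpoint, the share was 12.0% (10.9 to 13.2%) on the side of lower coordinates and 11.3% (10.2 to 12.5%) on the other. All distal windows of the genome outside lamin domains gave 11.3%, RefSeq promoters 6.64%, and distal windows outside lamin domains with the same GC content as each site 11.2%. The interval at the midpoint did not overlap those of the flanks, and the large majority of the sites, 2546, had no such word in the central window.

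The share was compared with 3 other sets of sites (Fisher's exact test, two-sided, with p-values adjusted over the 3 by the method of Benjamini and Hochberg). Sites called in both genotypes, distal and outside lamin domains, held a forkhead word at 101 of 269 (37.5%, 32.0 to 43.5%), and the odds at the mutant-only sites were lower (odds ratio 0.285, 95% interval 0.218 to 0.372, adjusted exact p = 6.34e-18). Counted over the whole called site in place of the central window, that odds ratio was 0.462 (adjusted exact p = 5.33e-09). Wild-type-only distal sites outside lamin domains held one at 163 of 1024 (15.9%), and no difference was detected (odds ratio 0.905, 0.744 to 1.10, adjusted exact p = 0.371). Mutant-only distal sites inside lamin domains held one at 404 of 2929 (13.8%), also without a detected difference (odds ratio 1.07, 0.925 to 1.24, adjusted exact p = 0.371). Among sites no wider than the median mutant site the odds at the mutant-only sites outside lamin domains were lower than at either of these sets, with odds ratios of 0.676 against wild-type-only sites (adjusted exact p = 0.0148) and 0.795 against sites inside lamin domains (adjusted exact p = 0.0279). Against sites inside lamin domains the odds passed in the other direction in windows of 500 bases (odds ratio 1.17, adjusted exact p = 0.0172) and over whole called sites (1.26, adjusted exact p = 4.12e-05).

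**Figure D1:**
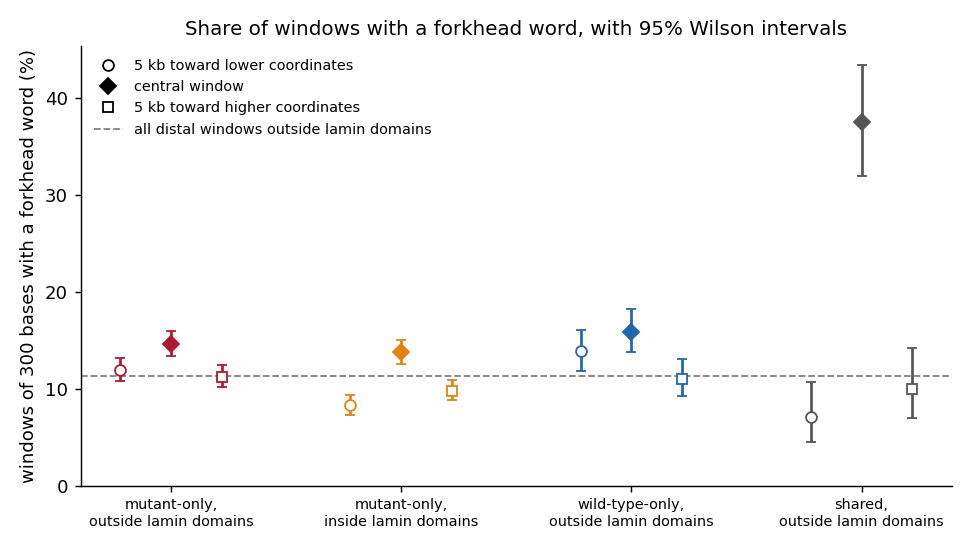
Share of 300-base windows with TGTTTAC or TATTTAC (y axis, %) at the midpoint of distal Foxa2 sites (filled) and 5 kb to either side (open), for 4 sets of sites, with 95% Wilson intervals. The mutant-only sites outside lamin domains reached 14.6% at the midpoint and the shared sites 37.5%; the dashed line is the 11.3% of all distal windows outside lamin domains.

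Along the 2 kb to either side of the midpoint, the density of forkhead words at the 2982 sites rose modestly toward the midpoint. Within 200 bp of the midpoint it was 0.566 words per kb, and between 1000 and 2000 bp it was 0.440 words per kb, a ratio of 1.29. The ratio was 1.51 at mutant-only sites inside lamin domains, 1.42 at wild-type-only sites outside them and 3.65 at the shared sites. The words far from the midpoint were more frequent at the 2982 sites than at those inside lamin domains (0.440 against 0.327 words per kb), as was the share in the genome around them (11.3% of distal windows outside against 8.73% inside lamin domains).

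**Figure D2:**
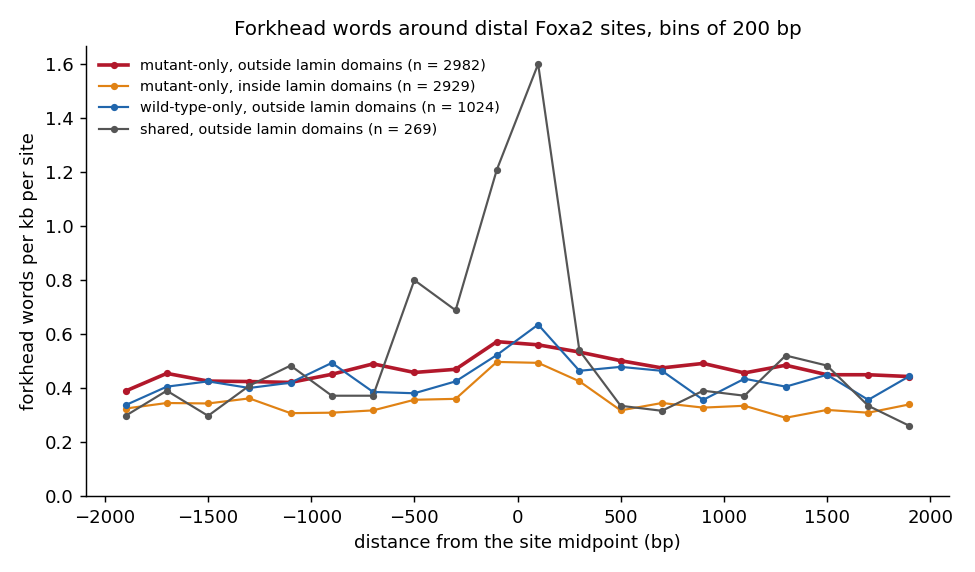
Forkhead words per kb and site (y axis) in bins of 200 bp by distance from the site midpoint (x axis, bp), for the 4 sets of distal sites. The mutant-only sites outside lamin domains rise from 0.440 words per kb at 1000 to 2000 bp to 0.566 within 200 bp, and the 269 shared sites to 1.40.

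Among the 2982 sites, the share with a word differed with base composition and between the narrowest and the widest sites. It was present at 18% (15.4 to 21.1%) of the 704 sites with a GC content under 35%, at 14.9% of the 1693 sites between 35 and 45%, and at 9.74% (7.60 to 12.4%) of the 585 sites of higher GC content. Both forkhead words are AT-rich, and these shares were not set beside the genome at the same GC levels. A word was present in the central window of 18.7% (16.1 to 21.7%) of the 753 narrowest sites, of 213 to 712 bp, and of 10.7% (8.70 to 13.1%) of the 746 widest, from 1161 bp. It was 13.4% at sites of 713 to 924 bp and 15.6% at sites of 925 to 1160 bp, so that it did not fall steadily with width. It differed less with position, at 14.6% of intronic and 14.5% of intergenic sites, at 14.9% of sites within 50 kb of a gene start and 13.8% of those beyond 500 kb, and at 15.9% of sites under 50 kb from a lamin domain and 14.9% of those at 500 kb and more.

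Another 9 words or elements were compared over the same windows and sets, with adjustment over 27 tests, of which 8 passed at an adjusted p of 0.05. AGATAA, bound by GATA factors, was present at 23.8% of the 2982 sites and at 17.9% of mutant-only sites inside lamin domains (odds ratio 1.44, 1.27 to 1.63, adjusted exact p = 2.73e-07). The same word stood in 22.2% and 20.7% of the windows 5 kb from the 2982 sites, and in 21.7% of all distal windows outside lamin domains against 16.3% inside them. TTGCNNAA, bound by C/EBP factors, was more frequent than inside lamin domains as well (16.2% against 13.4%, adjusted exact p = 0.0116), and stood in 15.3% of distal windows outside and 11.8% inside them. Words that contain CG were rarer than inside lamin domains, namely CACGTG, an E-box, at 1.74% against 4.37% (adjusted exact p = 8.99e-08) and CCGGAAG, of ETS factors, at 0.436% against 1.30% (adjusted exact p = 0.0019). The distal genome outside and inside lamin domains differed in the same direction, with CACGTG in 2.14% and 3.99% of windows and CCGGAAG in 0.559% and 1.11%. Against the shared sites, the 2982 sites had CAAAGTCCA, of the hepatocyte factor HNF4, at 0.604% against 3.72% (adjusted exact p = 0.000393), AGGTCA at 15.5% against 24.9% (adjusted exact p = 0.000918) and CACGTG at 1.74% against 4.46% (adjusted exact p = 0.0179). The eighth comparison that passed was AGGTCA against sites inside lamin domains (18.6%, adjusted exact p = 0.00584), beside 14.8% of distal windows outside and 18.2% inside them. None of the 9 differed from wild-type-only sites outside lamin domains past the threshold, where the lowest adjusted p was 0.0671 for AGATAA (20.3%), with an unadjusted p under 0.05 for AGATAA (0.0224) and AGGTCA (0.0391). The words of AP-1 (TGANTCA, at 9.99% of the sites) and of Sox factors (CCTTTGT or CCATTGT, at 11.2%) passed in no comparison. RefSeq promoters held AGATAA in 11.2%, TTGCNNAA in 10.9%, CACGTG in 7.14%, CCGGAAG in 9.004%, CAAAGTCCA in 0.487%, AGGTCA in 16.3%, TGANTCA in 7.84% and the Sox words in 9.18%.

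The base at the midpoint lay in a repeat, as soft-masked in the reference, at 707 of the 2982 sites (23.7%, 22.2 to 25.3%), whereas 36.6% and 37.1% of positions 5 kb to either side and 38.7% of all distal windows outside lamin domains were masked. The share was close to that of wild-type-only sites (24.2%, adjusted exact p = 0.927) and of mutant-only sites inside lamin domains (23.8%, adjusted exact p = 0.927), and was 17.8% at the shared sites (odds ratio 1.43, 1.04 to 1.98, adjusted exact p = 0.0864 by Fisher's exact test over 3 sets). When a window had to be masked over more than 50% of its length, the odds at the 2982 sites were higher than at the shared sites (odds ratio 2.62, adjusted exact p = 5.1e-05) and than at sites inside lamin domains (1.28, adjusted exact p = 0.0014).

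The rule kept only sites more than 5 kb from a protein-coding start. Their median distance to the nearest protein-coding start was 158 kb, with quartiles of 52.5 and 393 kb, and the farthest lay 2604 kb away. The distal genome outside lamin domains gave a median of 174 kb with quartiles of 54.2 and 432 kb, close to the values of the sites. Of the 2982 sites, 124 lay 5 to 10 kb from a start, 592 at 10 to 50 kb, 413 at 50 to 100 kb, 1280 at 100 to 500 kb and 573 farther. The nearest start was upstream or downstream in similar numbers, with 1383 sites (46.4%) on the upstream side of the gene. When start sites of every annotated gene were used, the median distance was 33.9 kb, and the nearest such gene was a processed pseudogene for 941 sites, a protein-coding gene for 646 and a lincRNA for 422.

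**Figure D3:**
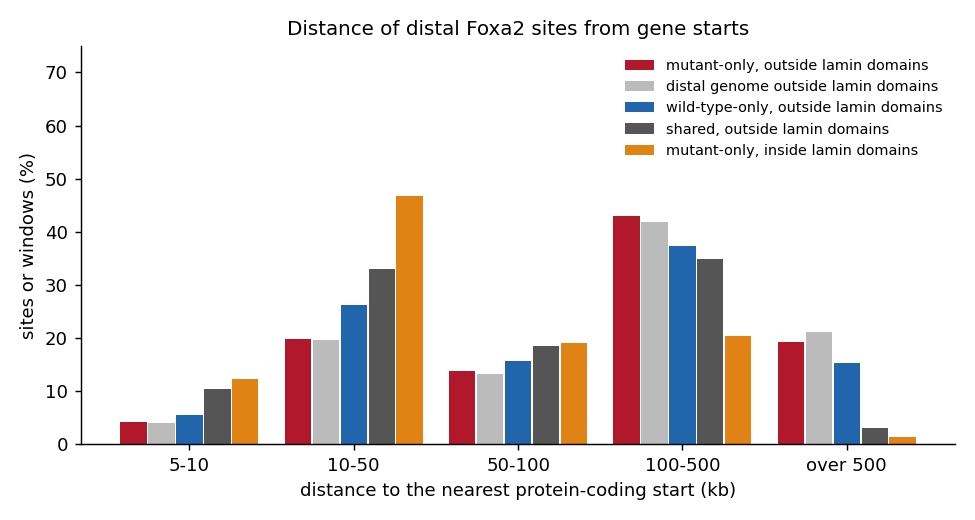
Share of distal Foxa2 sites, and of all 300-base windows of the distal genome outside lamin domains (grey), by distance to the nearest protein-coding start in kb (x axis). Of the mutant-only sites outside lamin domains, 42.9% lay at 100 to 500 kb and 19.2% beyond, against 41.9% and 21.2% of the windows and 20.4% and 1.40% of mutant-only sites inside lamin domains.

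The midpoint fell in an intron of a protein-coding gene at 968 sites (32.5%, 30.8 to 34.2%), in an exon at 47 (1.58%) and between genes at 1967 (66.0%). Of the distal windows outside lamin domains, 28.2% were intronic, 1.496% exonic and 70.3% intergenic. Intronic sites were rarer than among mutant-only sites inside lamin domains, of which 50.5% were intronic (odds ratio 0.471, 0.424 to 0.524, adjusted exact p = 1.25e-44, Fisher's exact test), and introns also made up 49.1% of the distal windows there. The share was not detectably different from the 33.5% of wild-type-only sites (odds ratio 0.954, 0.821 to 1.11, adjusted exact p = 0.563) or the 37.5% of shared sites (0.799, 0.617 to 1.04, adjusted exact p = 0.136).

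The sites were of moderate width, with a median of 924 bp, a 10th percentile of 542 bp, a 90th of 1409 bp and a range of 213 to 6678 bp. The median was 944 bp for mutant-only sites inside lamin domains, 1019 bp for wild-type-only and 635 bp for shared sites outside them. Sites that overlapped a wild-type site were left out by the rule. Of the 2982 sites, 22 lay within 1 kb of a wild-type site, 75 within 5 kb and 461 (15.5%) within 50 kb. The median gap to a wild-type site was 286 kb. From each mutant-only distal site outside lamin domains to the nearest other site of this class, the median was 150 kb. Neither this spacing nor the grouping that follows was compared with sites placed at random in the same part of the genome. Joining sites with gaps of at most 10 kb left 88 pairs, 5 groups of 3 and 1 group of 4, which together held 195 sites (6.54%). The group of 4 spanned 17.6 kb between 101 and 118 kb from the start of Paqr3, which encodes a Golgi membrane protein. Its sites were chr5:97211948-97212734, chr5:97217114-97217620, chr5:97223152-97223589 and chr5:97228822-97229574. All 4 were intergenic, and none had a forkhead word in its central window or lay in an H3K9me3 region.

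Position outside lamin domains was part of the rule, and distances to a domain were not computed for the rest of the genome. The nearest domain of either age was at a median of 396 kb, and 345 sites (11.6%) lay under 50 kb from one, 606 (20.3%) at 50 to 200 kb, 755 (25.3%) at 200 to 500 kb and 1276 (42.8%) farther. The number of mutant-only distal sites was 2.34 per Mb of distal genome outside lamin domains and 3.13 per Mb inside them. Of wild-type-only distal sites 36.5% were outside lamin domains, and of shared distal sites 26.7%, while 57.6% of the distal genome lay outside.

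H3K9me3 was present at the midpoint of 778 of the 2982 sites in young liver (26.1%, 24.5 to 27.7%) and of 359 in old liver (12.0%, 10.9 to 13.3%). These shares were near those of the distal genome outside lamin domains, 26.4% in young and 13.0% in old. By state, 2028 sites (68.0%) were outside H3K9me3 at both ages, 595 (19.95%) were inside in young liver alone, 183 (6.14%) at both ages and 176 (5.90%) in old liver alone, where the same states covered 66.9%, 20.1%, 6.34% and 6.70% of that genome. In sites per 100 Mb this was 238 outside the mark, 233 in regions marked in young liver alone, 227 in those marked at both ages and 206 in those marked in old liver alone.

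Wild-type-only sites outside lamin domains had nearly the same shares, 26.1% in young (odds ratio 1.00, 0.851 to 1.18, adjusted exact p = 1 by Fisher's exact test over 6 comparisons) and 14.1% in old liver (odds ratio 0.836, 0.679 to 1.03, adjusted exact p = 0.121). Shared sites were in young H3K9me3 less often, at 16.0% (odds ratio 1.86, 1.33 to 2.60, adjusted exact p = 0.000528), and in old H3K9me3 at 8.18% (1.54, 0.980 to 2.41, adjusted exact p = 0.0902). Mutant-only sites inside lamin domains had the mark at 22.4% in young (odds ratio 1.22, 1.08 to 1.38, adjusted exact p = 0.0021) and at 36.8% in old liver (odds ratio 0.235, 0.206 to 0.269, adjusted exact p = 5.22e-112). The first of these differences did not pass when distal meant more than 10 kb from a gene start (odds ratio 1.14, adjusted exact p = 0.0786), nor with the starts of all transcripts or the young lamin domains alone. With the young lamin domains alone, the difference in old liver was much smaller (odds ratio 0.856, 0.747 to 0.981, adjusted exact p = 0.0388). The distal genome inside lamin domains was marked over 22.7% of windows in young and 42.9% in old liver. The genome around the 2 classes of sites thus differed in the same directions as the sites. Neighbouring sites share domains, so the p-values do not measure variation between domains.

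**Figure D4:**
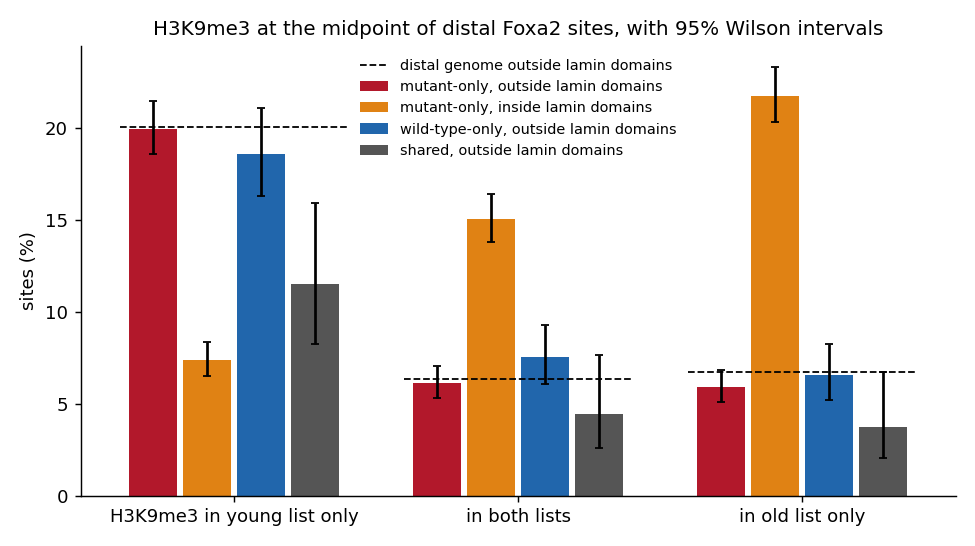
Share of distal Foxa2 sites (y axis, %) whose midpoint lay in an H3K9me3 region of young liver alone, of both ages or of old liver alone, for 4 sets, with 95% Wilson intervals; dashed lines give the share of the distal genome outside lamin domains. The mutant-only sites outside lamin domains stood at 19.95%, 6.14% and 5.90%, beside 20.1%, 6.34% and 6.70% of that genome.

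Within the 2982 sites, the mark varied with distance from protein-coding starts and was not compared with the genome at the same distances. In young liver it covered 17.3% (14.7 to 20.3%) of sites at 5 to 50 kb from a start, 25.8% (23.8 to 27.9%) at 50 to 500 kb and 37.9% (34.0 to 41.9%) beyond. In old liver the same shares were 10.3% (8.31 to 12.8%), 14.5% (12.9 to 16.2%) and 6.98% (5.17 to 9.37%), and the first and the last of these intervals overlapped. Intronic sites were marked at 15.9% in young liver and intergenic sites at 31.3%. With distance from a lamin domain the old share went from 69 of 345 sites (16.1 to 24.5%) under 50 kb to 8.15% (6.77 to 9.78%) at 500 kb and more, while the young shares were 27.8% and 27.6%. The forkhead word was present at 15.1% (13.6 to 16.7%) of the unmarked sites, 14.8% (12.2 to 17.9%) of those marked in young liver alone, 14.2% (9.81 to 20.1%) of those marked in old liver alone and 9.29% (5.88 to 14.4%) of those marked at both ages, and these intervals overlapped.

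Every chromosome held such sites, at unequal density. Per 100 Mb of distal genome outside lamin domains, chromosome 19 had 369 sites (97 sites), chromosome 10 had 301 and chromosome 18 had 296, whereas chromosome 17 had 108 (45 sites) and chromosome 2 had 116 (103 sites). Chromosome 1 had the highest number, 322. Wild-type-only sites outside lamin domains ranged from 30.2 per 100 Mb on chromosome 14 to 142 on chromosome 10, and the number of mutant-only sites per wild-type-only site ranged from 1.56 on chromosome 2 to 5.71 on chromosome 19. With 1 merged list per genotype, no spread between mice can be set beside these ratios.

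**Figure D5:**
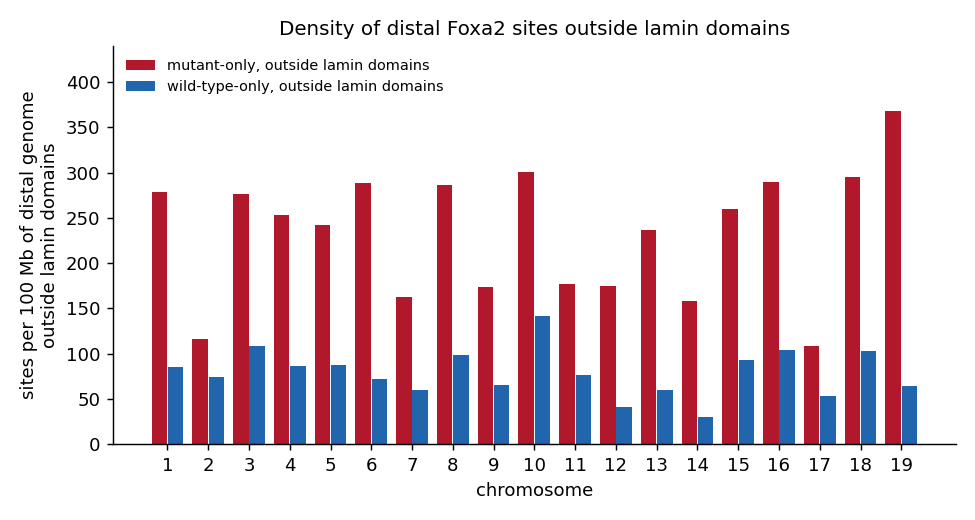
Distal Foxa2 sites per 100 Mb of distal genome outside lamin domains (y axis) on chromosomes 1 to 19 (x axis), for mutant-only and wild-type-only sites. Mutant-only sites range from 108 on chromosome 17 to 369 on chromosome 19, and wild-type-only sites from 30.2 on chromosome 14 to 142 on chromosome 10.

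Each site was assigned to the protein-coding gene with the nearest start, and 1632 of the 20807 genes on these chromosomes (7.84%) were nearest to at least 1 site. Of these, 984 had 1 site, and 101 genes with 5 or more together had 593 sites (19.9%). Pabpc4l, a relative of the cytoplasmic poly(A)-binding protein genes, and Cdh8, a cadherin gene of the nervous system, had 11 each, at 18.2 to 1354 kb and 32.4 to 1489 kb from the start. Adgrl3, which encodes a latrophilin adhesion receptor, and Cntnap5b, of the contactin-associated protein family, had 9 each. The next place was shared by 8 genes with 8 sites each, namely Adgrl2, Dsel, Gbe1, Gm9008, Klf12, Ptprd, Robo1 and Tenm3. Adgrl2, Ptprd, Robo1 and Tenm3 encode large adhesion or guidance receptors of neurons, and Gbe1 encodes the glycogen branching enzyme. At the genes named here, wild-type-only sites outside lamin domains numbered from 0 (Gm9008) to 5 (Adgrl2). The counts were not set against the length of distal genome nearest to each gene. Of the 11 sites at Cdh8, 3 held a forkhead word and 3 lay in young H3K9me3, and of the 8 sites at Ptprd 7 were intronic and none held a word.

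The lists of genes are described by the share of their members that were nearest to at least 1 site, beside the 7.84% of all protein-coding genes, with no test. The shares were not adjusted for the length of distal genome nearest to each gene. Among all 264 listed genes 38 were (14.4%). Of 32 nuclear receptors and coactivators 6 were, namely Ppargc1a, Nr3c1 (the glucocorticoid receptor), Thrb (a thyroid hormone receptor), Nr2f2, Nr1d2 and Rarb. The genes named here and below beyond those of the naming rule were chosen after their values were seen. Ppargc1a had 7 sites, at 111 to 703 kb from its start and none in H3K9me3 at either age, of which 4 held a forkhead word. Nr3c1 had 3, 2 of them in its introns at 52.1 and 92.2 kb. The 2 sites assigned to Nr1d2 lay in introns of Thrb, whose own start was farther away. None of the sites was nearest to Pparg, and none lay in the regions that the study draws for Foxa2.

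Of 20 hepatocyte transcription factors 3 were nearest to a site. Foxa2 itself had 1, chr2:147817034-147818115, intergenic, 229 kb downstream of its start, with no forkhead word in the central window and 126 kb from the nearest wild-type site. Onecut1 had 2 sites at 150 and 340 kb, and Hnf4g 2 sites in H3K9me3 of both ages. On the lipid lists the shares were near that of all genes, with 1 of 24 genes of fatty acid oxidation and ketogenesis (4.17%; Pdk4, which restrains glucose oxidation, at 13.8 kb), 2 of 33 genes of lipid and sterol synthesis and LXR targets (6.06%; Gpam and Abca1, the cholesterol exporter, with an intronic site at 20.2 kb) and 1 of 22 genes of lipid droplets and uptake (4.55%; Cd36, a fatty acid transporter, at 29.7 kb). Of 20 genes of bile acid synthesis and transport 3 were, namely Cyp7b1, an oxysterol hydroxylase, and the transporters Slco1b2 and Slco1a4.

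Of 30 genes of hepatocyte secreted proteins and metabolic enzymes 6 were nearest to a site, in each case within 100 kb. Alb, the albumin gene, had 4 sites, 2 in its introns at 6.18 and 10.2 kb and 2 upstream at 21.5 and 35.8 kb. Apob, the structural protein of very-low-density lipoprotein, had 5, of which the nearest lay 63.6 kb upstream. Cps1, of the urea cycle, had a site 9.50 kb upstream with 1 forkhead word and an intronic site at 22.3 kb. The fibrinogen genes Fgb and Fgg had 1 site each, that of Fgb at 7.67 kb in an exon and 1.88 kb from a wild-type site, and that of Fgg at 51.5 kb. Crp, the C-reactive protein gene, had 1 site at 96.3 kb. Of 22 genes of xenobiotic metabolism 4 were nearest to a site (18.2%), all within 23.4 kb, namely the cytochrome P450 Cyp3a11, the carboxylesterases Ces1d and Ces2a and the drug exporter Abcb1a. Apart from the Cps1 site 9.50 kb upstream, none of the sites at these 10 genes had a forkhead word in the central window. Over all 2982 sites the share with a word was 14.6%. The sites at these genes are few, and a difference from that share was not tested.

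Markers of other liver cells differed widely in small numbers. Of 9 stellate cell markers 4 were nearest to a site, namely Col1a2 at 5.36 kb, Col3a1, Reln and Hgf, and of 9 cholangiocyte markers 2, namely Sox9 and Cftr. None of 9 Kupffer cell and 10 sinusoidal endothelial markers was. Of 11 neuronal genes, a list apart from the liver cell markers, 5 were nearest to a site, namely Csmd1, Cntnap2, Dlg2, Syt1 and Kcnq3, with 3 of them within 100 kb. Counting all protein-coding starts within 50 kb of a site left 1 neuronal gene, 1 stellate cell marker and 0 cholangiocyte markers. On the list of hepatocyte secreted proteins and metabolic enzymes that count was 7. Csmd1 alone had 6 intronic sites, at 689 to 1091 kb from its start. Of 17 genes of the nuclear lamina, Tmpo, which encodes lamina-associated polypeptide 2, was nearest to 3 sites, at 283 to 512 kb, all in old H3K9me3.

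At the limits of the rule, the sites just inside had their midpoints 5016 bp (nearest to Ly6a) and 5044 bp (Gm4951) from a start, and those just outside 4968 bp (Ptprd) and 4957 bp (Ankrd31). The sites nearest to a wild-type site without overlap had gaps of 46 bp (Cdh19) and 141 bp (Naaladl2), and the least overlaps among sites counted as shared were 42 bp (Bche) and 160 bp (Mup20). The sites nearest to a lamin domain had midpoints 36 bp (Isl1) and 230 bp (Hrasls5) from it, and the least depths inside a domain among sites left out were 198 bp (Rnf125) and 367 bp (Acsl1). Only 4 of the 2982 sites reached into a lamin domain with a base other than the midpoint.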

How the data were processed

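The deposited lists, 1 for each of 6 groups, hold genome positions only. Per the methods and the labels, the authors used BWA and mm10, dropped duplicate and multiply aligned reads, merged replicates and reduced the mutant Foxa2 reads to match wild type. Foxa2 sites were called with PeakSeq against an input of mixed young and old wild-type chromatin, and lamin B1 domains with Epic in windows of 10 kb. The labels name SICER, and the caller of the H3K9me3 regions is not given in the sources used here. The age of the H3K9me3 lists is known from their names, and they hold another number of regions than the study states. H3K9me2 was not analysed here.

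Overlaps, distances, words in the central 300 bases and positions in genes were computed with Python 3.11.15, numpy 2.4.6, pandas 2.3.3, scipy 1.17.1 and statsmodels 0.14.6, with GENCODE vM21 and GRCm38.p6, and tested on simulated data. Every 300-base window of chromosomes 1 to 19 without unknown bases (7986009 windows, 4244121 of them distal and outside lamin domains) gave the shares for the genome. Shares were compared with two-sided Fisher's exact tests, which treat sites as units and do not measure variation between mice. Neighbouring sites share domains and are not independent. The sites named are those at receptor, factor and lipid genes with a forkhead word, the 5 with most words (ties ordered by distance of the nearest word from the midpoint, then position), the 5 genes with most sites (ties named in full), the largest group, DR-1 sites and sites at the limits. The sites and lists were chosen with earlier results of these data known, and some listed genes are not reported here.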

Additional observations from a re-analysis of the deposited data

Results flagged for a closer look

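The contrast between mutant-only distal sites outside and inside lamin domains differed between the ages of the H3K9me3 lists. Outside lamin domains, 595 sites lay in H3K9me3 of young liver alone and 176 in that of old liver alone, whereas inside lamin domains 216 and 637 did (odds ratio 9.97, 95% interval 7.94 to 12.5, two-sided Fisher's exact test, p = 4.69e-101, adjusted over 3 sets 1.41e-100). Under alternative definitions of the sites, applied to this contrast after seeing the data, the odds ratio was 9.59 to 10.98 in 5, and with the young lamin domains alone it fell to 1.35 (1.06 to 1.72, adjusted exact p = 0.0225). The other sets outside lamin domains were not detectably different from the mutant-only sites there. Young alone and old alone held 190 and 67 wild-type-only sites (odds ratio 1.19, adjusted exact p = 0.464). For shared sites the numbers were 31 and 10 (1.09, adjusted exact p = 0.849). The distal genome was marked over 26.4% of windows outside and 22.7% inside lamin domains in young liver, and over 13.0% and 42.9% in old liver, in the same directions. Each age is 1 merged list with its own read depth, so the difference was not compared with variation between mice. Neighbouring sites share domains, and the p-values do not measure variation between domains.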

How the results depend on the processing

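No paired analysis was possible because the replicates of each group were merged before calling, and for the same reason no replicate could be left out. Of 132 alternatives with a test, 105 kept the direction and the side of the threshold. The number of sites was 2604 to 3054 under 5 definitions and 4478 with the young lamin domains alone. That setting gave, against sites inside lamin domains, odds ratios of 0.873 for the forkhead word, 1.05 for young H3K9me3 (adjusted exact p = 0.547), 0.856 for old H3K9me3 in place of 0.235, 1.35 for young-only against old-only H3K9me3 in place of 9.97, and 0.780 for repeats; against wild-type-only sites 0.862 for old H3K9me3, 1.08 for repeats and 0.840 for introns; and against shared sites 1.80, 1.86 and 0.670. Reciprocal overlap under 50% gave, against sites inside lamin domains, 0.952 for the forkhead word and 1.04 for repeats, against shared sites 1.94 for old H3K9me3 and 0.716 for introns, and 5 of 27 other-word comparisons in place of 8. Against sites inside lamin domains, young H3K9me3 gave 1.14 with distal over 10 kb and 1.12 with starts of all transcripts, and against wild-type-only sites 0.999 with the latter and 0.991 at 50 kb or more from a domain. For the forkhead word against sites inside lamin domains, the odds ratio was 1.17 in windows of 500 bases and 1.26 in whole sites, both past the threshold, 0.995 for TGTTTAC alone, 0.914 over 5 GC strata, 0.795 in sites no wider than the median mutant site and, in an alternative chosen after seeing the data, 0.883 outside H3K9me3; against wild-type-only sites it was 1.03 in whole sites and 0.676 in the narrow sites. Repeats over more than 50% of the window gave 1.28 against sites inside lamin domains and 2.62 against shared sites. Listed genes with a site numbered 38, against 24 within 100 kb and 20 counting all starts within 50 kb. The cause of these changes was not tested. The lower forkhead share than at shared sites kept its direction and passed the test under every alternative run.

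No stricter threshold was tried, as the lists carry no score.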

Other observations

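The mutant list is not in genome order, and the meaning of its order is not given in the sources used here. Along 10 equal stretches of the list, the share of sites that overlapped a wild-type site went from 76.9% in the first to 3.85% in the last, and the share that were mutant-only, distal and outside lamin domains from 7.94% to 45.1%. Within that class, median width went from 1340 bp in the first stretch to 728 bp in the last. The forkhead word was present at 10 of 64 of its sites in the first stretch (15.6%, 95% Wilson interval 8.71 to 26.4%), at 24.5% (19.1 to 30.9%) in the second and at 11.05 to 17.3% in the later ones.

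The central windows of the 2982 sites had a median GC content of 39.3%, near the 39% of their flanks. Mutant-only sites inside lamin domains likewise had 44.7% in both, whereas wild-type-only sites outside lamin domains had 41.7% against 39.7% in their flanks and shared sites 43.3% against 41.3%. The windows held a mean of 1.83 CG dinucleotides, and 23.8% held none, against means of 2.20 at wild-type-only and 3.05 at shared sites.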
